A study of Mus musculus with 6 samples.

Results

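The genes described here are 10 members of the amino acid arm of the integrated stress response in mice, chosen by name from what is known of the transcription factor ATF4: Atf4 itself, Asns, Psat1, Phgdh, Shmt2, Mthfd2, Chac1, Trib3, Ddit3 and Slc7a5. They and the pathway lists below were chosen with earlier results of these data known. Of these 10, 9 had a row in the expression table, out of 49386 genes with a row in all, and all 9 were among the 13500 genes tested. Slc7a5, a transporter of large neutral amino acids, is not analysed here. The 9 genes each passed the filter on low values, a mean of at least 1 FPKM (fragment counts divided by transcript length and by the mapped total of each library) in a group, in both groups.

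The samples were epidermis, separated from the skin of C57BL/6 mice late in gestation (E19.5), and their RNA was sequenced. The control group held 3 libraries (numbered 261, 262 and 264, titled ctrl) and the other group held 3 libraries of genotype Rictor -/- (263, 265 and 266, titled ricEKO). Rictor is the subunit that defines mTOR complex 2, and the comparison asks which transcripts differ in epidermis labelled as lacking it. The labels do not give the promoter that drove the deletion, the exons removed, or whether each library was 1 animal or a pool. The p-values therefore measure the spread between these libraries, which may be partly technical.

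When amino acids run short, or proteins misfold in the endoplasmic reticulum, kinases phosphorylate the initiation factor eIF2, most translation slows, and the Atf4 mRNA is translated more. ATF4 protein then pairs with other leucine zipper factors on composite elements in promoters and raises genes for amino acid synthesis, transport and tRNA charging. The same factor also raises genes of a feedback and cell death arm, among them Trib3, Chac1 and Ddit3, and signalling through mTOR complex 1 can raise ATF4 and its amino acid genes as well. RNA levels do not show how much ATF4 protein was made.

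The members did not move as one in these epidermal samples. RNA for the factor itself (Atf4), for asparagine synthesis (Asns) and for a mitochondrial folate enzyme (Mthfd2) was higher in the knockout-labelled libraries, by 1.42, 1.99 and 1.96 times. RNA of Trib3, a feedback inhibitor, was 1.66 times lower. Phgdh, Psat1, Shmt2, Chac1 and Ddit3 did not pass the test. Of the 9 members, 3 were called higher and 1 lower by limma at an adjusted p under 0.05, where 7.91% of all tested genes were called higher and 15.6% lower. The libraries of the groups did not overlap for 3 members in the higher direction and for 2 in the lower direction, beside 16.6% and 29.2% of all tested genes. Without knockout-labelled library 263 the counts called were 2 higher and 2 lower. The median difference over the 9 members was 0.29 on the log2(FPKM + 1) scale, and over all tested genes it was -0.06. Among all called genes 33.7% were higher as the values were deposited, and 44.5% to 50.5% after rescaling the libraries or adjusting for gene length.

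The Rictor transcript was at 5.63, 6.02 and 4.37 FPKM in the control libraries and at 6.83, 7.04 and 6.86 FPKM in the knockout-labelled libraries. It was not lower in the latter group (log2 difference 0.33 ± 0.11 SE, limma adjusted p = 0.0694). A value over the whole gene also counts reads outside a deleted part, so this does not check the genotype labels, and the group is called knockout-labelled throughout.

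Control 264 stood apart by gene length: its deviations from the mean over libraries correlated with exonic length at a Spearman's rho of -0.36 across 13467 genes, where the other controls were at -0.007 and 0.003 and the knockout-labelled libraries at 0.17 to 0.26. Results that change without it are given with that value.

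The tissue label was checked against marker genes, and sums for some other cell types moved with the groups. Beside the calls below, 7.91% of all tested genes were called higher and 15.6% lower, and 24.9% were lower at an unadjusted p under 0.05. The 8 keratinocyte markers summed to 34070 to 36059 FPKM in the controls and 36865 to 37983 FPKM in the knockout-labelled libraries, with Krt14 and Krt5 called higher. Sums for melanocyte markers were 380 to 461 and 285 to 322 FPKM, with 4 of 7 tested called lower by limma. Langerhans cell and myeloid markers summed to 36.0 to 45.8 and 24.8 to 27.2 FPKM (4 of 5 tested called lower), and T cell markers to 9.36 to 13.1 and 4.46 to 6.64 FPKM (2 of 3 called lower, of which Cd3e passed the filter through the controls alone, which fixes its direction). Fibroblast markers summed to 114 to 142 and 124 to 159 FPKM, with 2 of 4 called higher. Schwann cell and nerve markers summed to 9.15 to 10.7 and 10.8 to 11.5 FPKM, with Mbp called higher of 2 tested. Erythroid markers summed to 239 to 396 and 121 to 270 FPKM, and limma called 0 of 4 tested in either direction, with 3 of them lower at an unadjusted p under 0.05 and a median difference of -0.80. Muscle, adipocyte and endothelial sums overlapped between the groups. No marker was at 0 in all 6 libraries, and Cd207 was listed at 0 in 4 of them. In such bulk tissue, fewer cells of a type and less RNA per cell cannot be told apart, and the part these cells have in the members' differences was not tested.

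Promoters of the members are shown because ATF4 binds a short composite element, the C/EBP-ATF response element, in front of several of them. The 250 bases before each RefSeq start site (GRCm38.p6) were searched on both strands for its core, TGATGNAA. All 9 members matched the RefSeq table, with 10 start sites since Psat1 has 2. The core was in 2 of the 10 windows, those of Asns and Chac1, and in 3.45% of all 32851 promoter windows of that length. A looser form, TGNTGNAA, which was chosen after these sequences were seen and includes the core, was in 5 of the 10, adding Psat1, Trib3 and Phgdh, and in 12.8% of all windows. The endoplasmic reticulum stress element, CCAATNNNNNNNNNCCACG, was in 0 of the 10 and in 0.113% of all windows. The 4 windows below run 5′ to 3′ on the gene's strand, and capitals mark the match to TGATGNAA (Asns, and Chac1 on the opposite strand) or to the looser form (Trib3, Psat1). They lie at chr6:7693225-7693459 (minus strand, ending 16 bases before the start) for Asns, chr2:119350992-119351241 (plus strand) for Chac1, chr2:152344061-152344310 (minus strand) for Trib3 and chr19:15925060-15925309 (minus strand) for the first Psat1 start.
Asns: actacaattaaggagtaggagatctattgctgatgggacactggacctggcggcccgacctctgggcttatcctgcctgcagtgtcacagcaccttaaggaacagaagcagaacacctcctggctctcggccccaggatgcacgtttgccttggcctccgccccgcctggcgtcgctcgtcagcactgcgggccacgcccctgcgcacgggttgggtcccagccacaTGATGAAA
Chac1: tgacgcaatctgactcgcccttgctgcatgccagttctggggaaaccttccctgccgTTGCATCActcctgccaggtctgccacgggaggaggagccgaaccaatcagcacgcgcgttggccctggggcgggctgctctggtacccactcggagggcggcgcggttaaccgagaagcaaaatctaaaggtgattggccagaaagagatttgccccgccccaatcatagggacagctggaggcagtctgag
Trib3: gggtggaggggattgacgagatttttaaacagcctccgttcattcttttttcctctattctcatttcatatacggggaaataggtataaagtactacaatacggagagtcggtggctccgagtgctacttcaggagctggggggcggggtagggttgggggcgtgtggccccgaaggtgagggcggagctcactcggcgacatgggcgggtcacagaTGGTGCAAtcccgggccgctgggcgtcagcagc
Psat1: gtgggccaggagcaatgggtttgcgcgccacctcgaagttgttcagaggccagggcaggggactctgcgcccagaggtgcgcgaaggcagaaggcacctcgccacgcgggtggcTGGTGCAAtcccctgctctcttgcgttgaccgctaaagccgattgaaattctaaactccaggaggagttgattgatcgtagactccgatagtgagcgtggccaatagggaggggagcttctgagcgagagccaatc
The match in Asns lay 23 to 16 bases before its RefSeq start, inside an exon of the GENCODE annotation, and that in Chac1 lay 193 to 186 bases before its start. Trib3 and Psat1 carried the same 8 letters, TGGTGCAA, at 33 to 26 and at 136 to 129 bases before their starts. Asns, with the core, was called higher, Chac1, also with it, was not called, and Trib3, with the looser form, was called lower. A match to these letters is a description of the sequence and does not show that a factor was bound.

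Atf4 encodes the factor that drives the response and is a gene at chr15:80255184-80257541 on the plus strand of GRCm38. Its level was 104, 93.7 and 114 FPKM in controls 261, 262 and 264 and 157, 152 and 135 FPKM in knockout-labelled 263, 265 and 266. Every knockout-labelled library lay above every control. The mean rose from 104 ± 10.1 to 148 ± 11.5 FPKM (SD, n = 3 libraries per group), a log2(FPKM + 1) difference of 0.51 ± 0.10 (SE, limma adjusted p = 0.0138). Atf4 was the most abundant member in both groups. Without knockout-labelled 263 the difference was 0.46 and the limma adjusted p 0.0567, and without 265 they were 0.48 and 0.0514. In these fits 477 and 580 of all tested genes were called higher, where 1068 were with all libraries. Why the Atf4 call was lost was not tested.

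**Figure D1:**
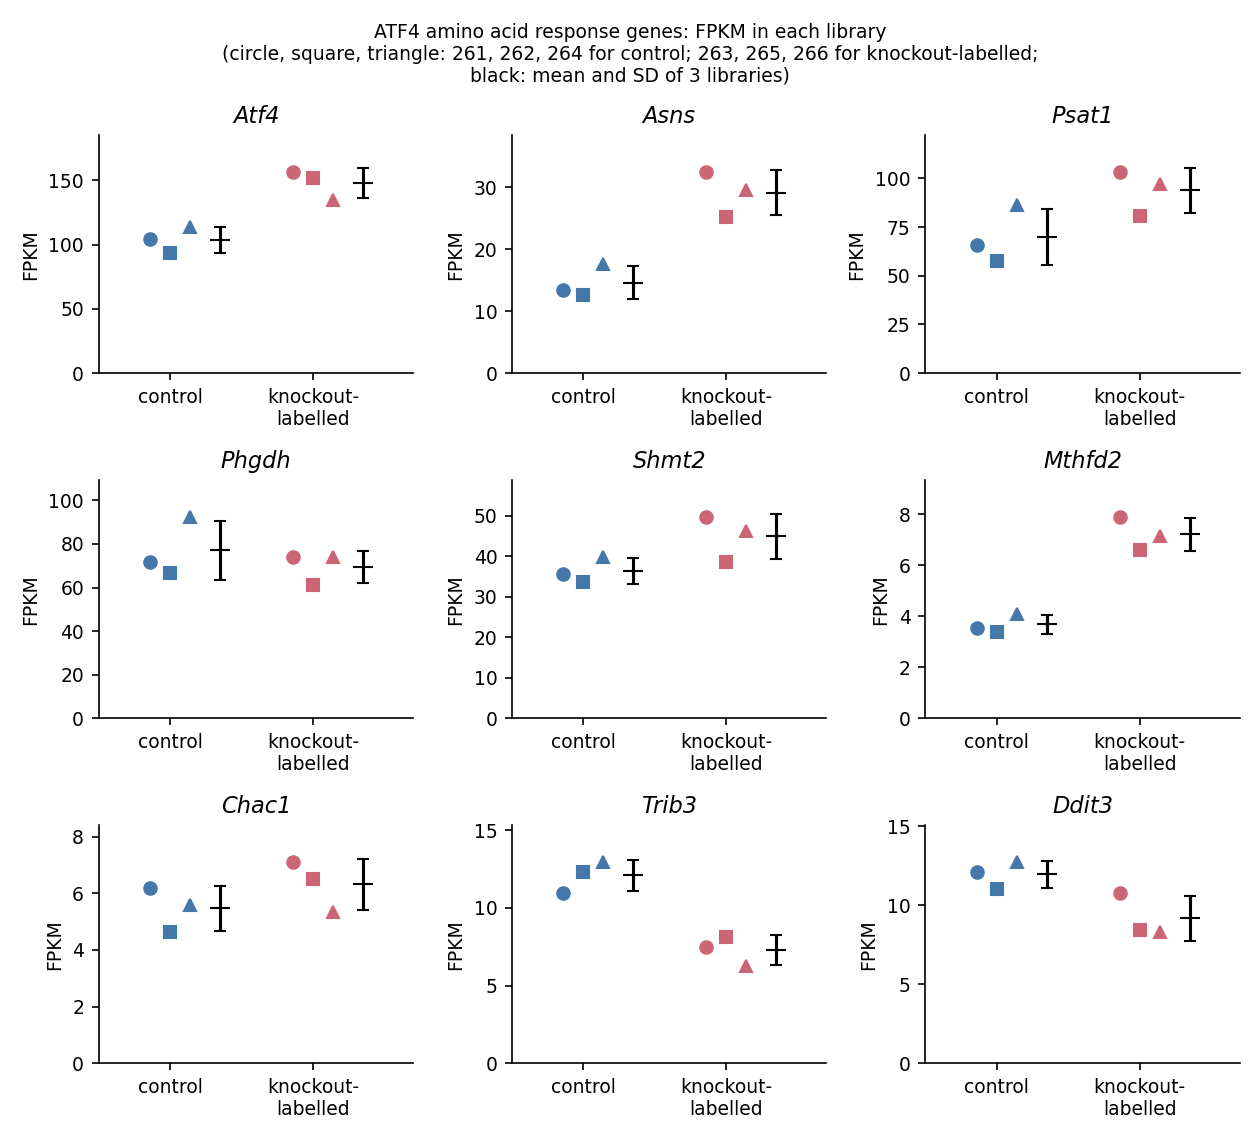
FPKM of the 9 members in each of the 6 libraries (vertical axes, 1 panel per gene, each starting at 0), with controls and knockout-labelled libraries side by side, a point per library and black marks for each group's mean and SD. Atf4, Asns and Mthfd2 separate upward and Trib3 and Ddit3 downward, while the groups overlap for Psat1, Phgdh, Shmt2 and Chac1.

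Asns encodes asparagine synthetase, which makes asparagine from aspartate and glutamine and is a classical ATF4 target. The gene lies at chr6:7675169-7693254 on the minus strand. Asns stood at 13.5, 12.7 and 17.6 FPKM in the controls and at 32.5, 25.3 and 29.5 FPKM in the knockout-labelled libraries. The lowest knockout-labelled library was above the highest control. The mean rose from 14.6 ± 2.66 to 29.1 ± 3.63 FPKM, a difference of 0.96 ± 0.14 on the log2(FPKM + 1) scale (limma adjusted p = 0.00640). The call held in all 20 alternative settings, with differences of 0.80 to 1.09.

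Serine is made from a glycolytic intermediate in a short pathway that Phgdh opens and Psat1 continues. Phgdh encodes phosphoglycerate dehydrogenase (chr3:98313170-98339990, minus strand). It was at 71.7, 66.9 and 92.5 FPKM in the controls and at 73.9, 61.1 and 73.8 FPKM in the knockout-labelled libraries. The groups overlapped, with control 264 highest of all. The means were 77.0 ± 13.6 and 69.6 ± 7.38 FPKM, with a difference of -0.14 ± 0.14 (limma adjusted p = 0.506). Without control 264 the difference was 0.002, with the sign turned.

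Psat1 encodes phosphoserine aminotransferase, the next enzyme of that pathway (chr19:15904678-15947337, minus strand). It was at 65.8, 57.8 and 86.1 FPKM in the controls and at 103, 80.9 and 97.3 FPKM in the knockout-labelled libraries. Control 264 lay above knockout-labelled 265, so the groups overlapped. The means were 69.9 ± 14.6 and 93.9 ± 11.6 FPKM, with a difference of 0.43 ± 0.16 that did not pass the test (limma adjusted p = 0.0967). Without control 264 the difference was 0.59 and the adjusted p 0.0201.

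Shmt2 and Mthfd2 act after serine, inside mitochondria. Shmt2 encodes the hydroxymethyltransferase that splits serine into glycine and a folate-bound carbon unit (chr10:127517123-127522444, minus strand). Its level was 35.7, 33.6 and 39.7 FPKM in the controls and 49.8, 38.7 and 46.2 FPKM in the knockout-labelled libraries. Control 264 was above knockout-labelled 265 here as well. The means were 36.4 ± 3.10 and 44.9 ± 5.65 FPKM, with a difference of 0.29 ± 0.11 that did not pass (limma adjusted p = 0.0984). It passed after adjusting for gene length, with a difference of 0.39 and an adjusted p of 0.0299. Its annotation shares 32 exonic bases with Ndufa4l2 on the other strand, and reads there cannot be assigned without the strandedness, which no source used here states.

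Mthfd2 encodes the mitochondrial dehydrogenase and cyclohydrolase that oxidises that carbon unit, and is usually low in adult tissue (chr6:83305691-83325908, minus strand). It was at 3.55, 3.38 and 4.09 FPKM in the controls and at 7.90, 6.61 and 7.15 FPKM in the knockout-labelled libraries. The groups were well apart. The mean rose from 3.68 ± 0.369 to 7.22 ± 0.646 FPKM, a difference of 0.81 ± 0.09 (limma adjusted p = 0.00334), and the call held in all 20 alternatives, with differences of 0.49 to 0.96. With Asns it was 1 of 2 members whose mean came close to doubling.

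In the feedback and death arm, Trib3 was called lower and Ddit3 and Chac1 were not called. Over all tested genes 7.91% were called higher and 15.6% lower. Trib3 encodes a pseudokinase that binds ATF4 and the kinase AKT and damps the response (chr2:152337422-152344032, minus strand). Its level was 11.0, 12.3 and 13.0 FPKM in the controls and 7.46, 8.15 and 6.27 FPKM in the knockout-labelled libraries. All knockout-labelled libraries were below all controls. The mean fell from 12.1 ± 1.01 to 7.29 ± 0.949 FPKM, a difference of -0.66 ± 0.10 (limma adjusted p = 0.00781). The call held in all 20 alternatives, with differences of -0.74 to -0.48.

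Ddit3 encodes CHOP, a leucine zipper factor that ATF4 induces and that can promote cell death (chr10:127290774-127296288, plus strand). It was at 12.1, 11.0 and 12.8 FPKM in the controls and at 10.8, 8.43 and 8.28 FPKM in the knockout-labelled libraries. The groups did not overlap, though knockout-labelled 263 lay just below control 262. The means were 11.9 ± 0.882 and 9.17 ± 1.41 FPKM, with a difference of -0.36 ± 0.11 that did not pass the test (limma adjusted p = 0.0590). It passed without library 263 (-0.47, adjusted p 0.0315), and after adjusting for gene length it was -0.20 (adjusted p 0.175). Ddit3 shares 68 exonic bases with Mars on the other strand, so reads there may be split or shared. It shares 105 with a further annotated gene of the same name, which has no row in the expression table.

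Chac1 encodes an enzyme that degrades glutathione and is induced by ATF4 with CHOP (chr2:119351229-119354381, plus strand). It was at 6.18, 4.63 and 5.59 FPKM in the controls and at 7.11, 6.50 and 5.35 FPKM in the knockout-labelled libraries. The groups overlapped. The means were 5.47 ± 0.787 and 6.32 ± 0.894 FPKM, with a difference of 0.18 ± 0.13 (limma adjusted p = 0.343).

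**Figure D2:**
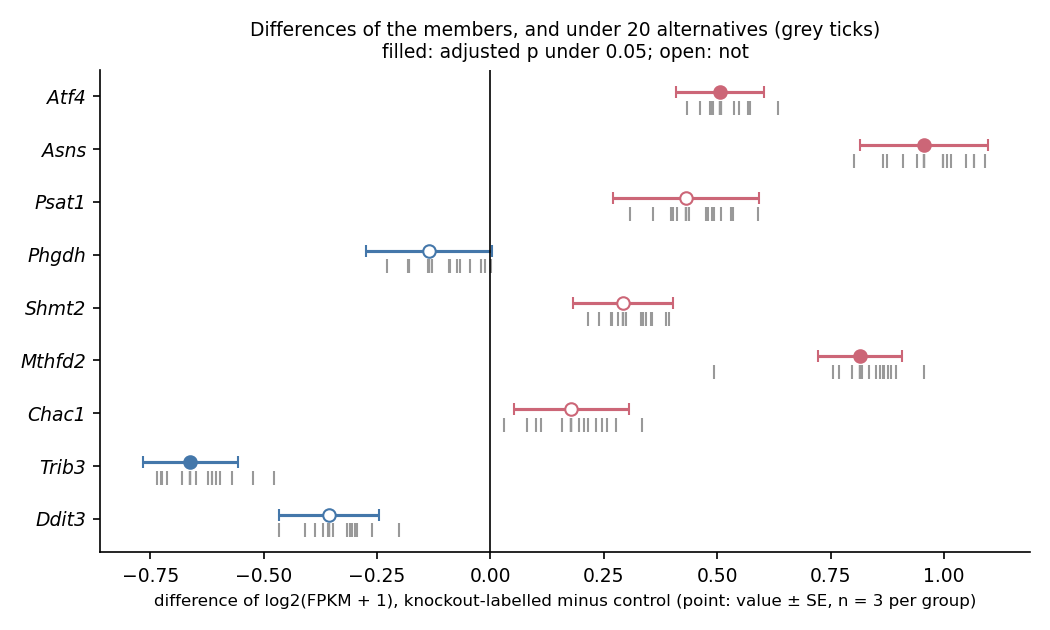
Difference of log2(FPKM + 1), knockout-labelled minus control, for the 9 members (horizontal axis), with bars of 1 standard error from limma, filled points for called members and grey ticks for the 20 alternatives. Asns at 0.96, Mthfd2 at 0.81 and Atf4 at 0.51 lie to the right and Trib3 at -0.66 to the left as the 4 called members.

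The order of the members by FPKM, a level per length, changed between the groups. In the controls it ran Atf4, Phgdh, Psat1, Shmt2, Asns, Trib3, Ddit3, Chac1 and Mthfd2. Library ranges overlapped between Phgdh and Psat1, between Asns and Trib3 and between Trib3 and Ddit3. In the knockout-labelled libraries it ran Atf4, Psat1, Phgdh, Shmt2, Asns, Ddit3, Trib3, Mthfd2 and Chac1. There the ranges overlapped between Trib3 and Mthfd2 and between Mthfd2 and Chac1. Asns and Trib3 were thus at like levels in the controls and well apart in the knockout-labelled libraries.

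Ratios of members inside a library do not depend on a scaling factor for each library, but the gene length trend can remain in them. The 6 pairs were formed after the values were seen, and for all 6 the groups did not overlap. An exact two-sided permutation test gave p = 0.1 for each, the smallest that 3 against 3 libraries allow, and 0.1 after adjustment over the 6. The test adds no support, since the pairs were chosen from the same values. For Trib3 per Asns, Trib3 per Atf4 and Ddit3 per Atf4, each member's groups lay apart in opposite directions, which fixed the outcome. Trib3 per Asns was 0.841 ± 0.120 in the controls and 0.255 ± 0.0591 in the knockout-labelled libraries, 0.303 times as much. Relative to Atf4, Trib3 went from 0.117 ± 0.0131 to 0.0493 ± 0.0038 and Ddit3 from 0.115 ± 0.0028 to 0.0619 ± 0.0067, while Asns went from 0.140 ± 0.0132 to 0.198 ± 0.0276. Along the serine pathway, Psat1 per Phgdh was 0.905 ± 0.0350 and 1.35 ± 0.0446, though neither gene was called by itself. Mthfd2 per Shmt2 was 0.101 ± 0.0017 and 0.162 ± 0.0084. In all 6 pairs the member with the longer exons gained on the other in the knockout-labelled libraries, which is also the direction of the length trend. The part of that trend in the ratios was not tested. A ratio shows that members of a pair differed unequally and not which of them changed.

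**Figure D3:**
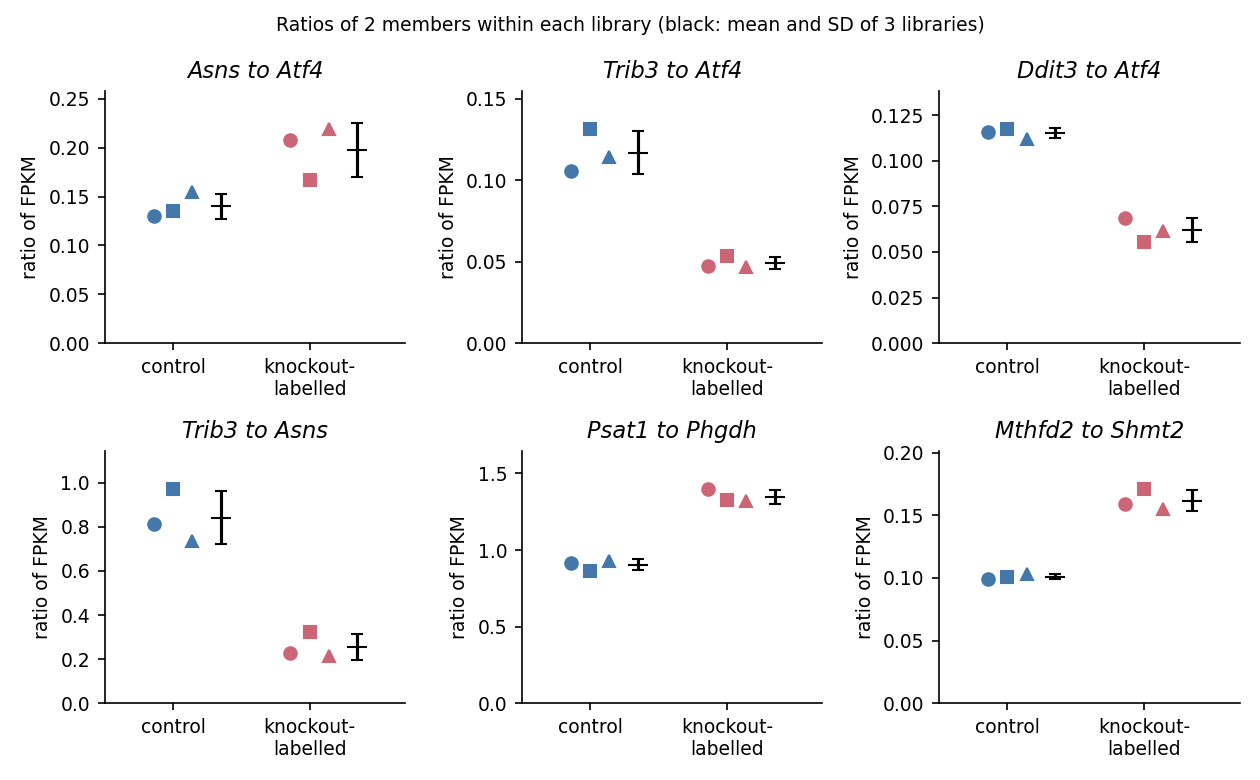
Ratio of FPKM between members of 6 pairs within each library (vertical axes), for controls and knockout-labelled libraries, with a point per library and black marks for the mean and SD. Ratios with Trib3 or Ddit3 on top are lower in the knockout-labelled libraries, and Asns per Atf4, Psat1 per Phgdh and Mthfd2 per Shmt2 are higher.

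Other genes of the pathway were taken from 7 lists (118 genes, of which 111 were tested). Of the 111, 22 were called higher, 13 lower and 76 were not called, beside 7.91% higher and 15.6% lower over all tested genes, and their median log2 difference was 0.07 against -0.06. Among the 110 that passed the filter through both groups, 21 were called higher and 13 lower. The 22 include 10 cytosolic synthetases and 3 transporters. Leaving out any single library but control 264 lowered these counts, and also those over all genes. Without control 264 the pathway counts rose to 32 higher and 17 lower, and those over all tested genes to 1514 and 2270. Pathway genes called higher were 8 without knockout-labelled 263, 10 without 266 and 12 without 265 or without control 261 or 262. Over all tested genes the higher calls, 1068 with all libraries, were 477, 537, 580, 634 and 664 without 263, 266, 265, 261 and 262. Those called lower were 5 without 263, 6 without 266 or control 261, 7 without 265 and 8 without control 262, where the 2101 lower calls over all genes became 985, 1001, 1289, 1165 and 1544 without 263, 266, 261, 265 and 262.

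The cytosolic aminoacyl-tRNA synthetases, which load tRNAs with amino acids and many of which are ATF4 targets, had 10 of 20 tested members called higher and 0 lower by limma (13 and 0 at an unadjusted p under 0.05). Over all tested genes the shares were 7.91% and 15.6%, and at an unadjusted p under 0.05 they were 13.4% and 24.9%. Of the 20 differences 19 were positive, and the median was 0.29. Nars, for asparagine, rose from 41.6 ± 2.39 to 59.1 ± 3.02 FPKM (0.50 ± 0.07, limma adjusted p = 0.00610). Tars, for threonine, rose from 27.9 ± 2.04 to 39.5 ± 0.988 FPKM, Eprs, for glutamate and proline, from 32.4 ± 0.747 to 42.2 ± 1.15 FPKM, and Vars, for valine, from 38.0 ± 0.460 to 49.7 ± 2.97 FPKM. The others called, named after their values were seen, were Yars, Farsb, Aars, Cars, Farsa and Iars. Leaving out single libraries moved the count: it was 4 without knockout-labelled 263 or 266, 5 without 265, 6 without control 261 or 262 and 13 without control 264, where calls over all genes also moved, from 1068 higher to between 477 and 1514. The 17 mitochondrial synthetases, a list added after the data were seen, had 1 member called higher by limma (Aars2), 0 lower (5 at an unadjusted p under 0.05) and a median of -0.11.

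**Figure D4:**
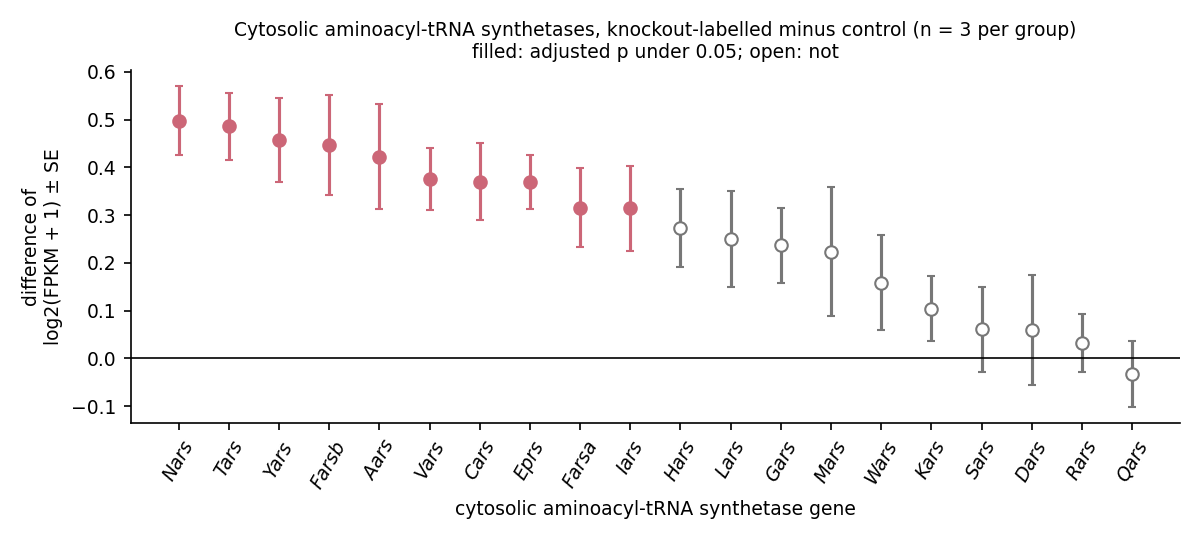
Difference of log2(FPKM + 1), knockout-labelled minus control (vertical axis), for each of 20 cytosolic aminoacyl-tRNA synthetases (horizontal axis), with bars of 1 standard error and filled points for called genes. Values run from 0.50 for Nars to -0.03 for Qars, and the 10 called genes are the 10 highest.

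Amino acid transporters had 3 of 13 tested members called higher and 0 lower by limma, beside 7.91% and 15.6% of all tested genes. Their median difference was 0.12. At an unadjusted limma p under 0.05 they had 4 higher and 0 lower, beside 13.4% and 24.9% of all tested genes. Among the 12 transporters that passed the filter through both groups, 2 were called higher. Slc7a1, a carrier of arginine and lysine, was at 21.8, 21.5 and 20.1 FPKM in the controls and at 33.4, 34.9 and 35.5 FPKM in the knockout-labelled libraries (0.68 ± 0.06, limma adjusted p = 0.00202). Slc38a2, a carrier of small neutral amino acids that starvation induces, was at 81.5, 75.4 and 72.1 and at 131, 105 and 112 FPKM (0.59 ± 0.10, limma adjusted p = 0.00904). Slc7a11, the cystine and glutamate exchanger, was at 0.917, 0.950 and 0.879 and at 2.24, 1.67 and 2.14 FPKM (0.65 ± 0.11, limma adjusted p = 0.0100). All 3 had groups far apart, and Slc7a11 entered the test through the knockout-labelled group alone, which fixes its direction. Slc3a2, the heavy chain that pairs with the product of Slc7a5 and was named after its values were seen, had means of 95.9 ± 4.43 and 101 ± 4.83 FPKM (limma adjusted p = 0.504).

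The remaining enzymes of serine, glycine and folate metabolism had 0 of 17 tested members called higher and 2 lower by limma. Their median difference was 0.05. At an unadjusted limma p under 0.05 they had 4 higher and 2 lower, beside 13.4% and 24.9% of all tested genes. Over all tested genes 7.91% were called higher, and the lower count called here is near the 15.6% called lower. The 2 lower calls were Aldh1l1, which oxidises a folate-bound carbon unit in the cytosol, from 1.68 ± 0.153 to 1.10 ± 0.0553 FPKM (limma adjusted p = 0.0440), and Gcat, of threonine breakdown, from 118 ± 12.7 to 94.3 ± 5.59 FPKM (limma adjusted p = 0.0497). Each of these calls was lost in 12 alternatives. Without any 1 library the adjusted p of Aldh1l1 was 0.0652 to 0.117, and that of Gcat 0.0596 to 0.147 without any 1 but control 264. Mthfd1 and Slc25a32, the cytosolic folate enzyme and the mitochondrial folate carrier, were named after their values were seen. They had differences of 0.30 ± 0.10 and 0.29 ± 0.09 that did not pass (limma adjusted p = 0.0642 and 0.0601), with groups that did not overlap.

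The machinery upstream of ATF4 had 1 of 17 tested members called higher and 2 lower, near the 7.91% and 15.6% of all tested genes, with a median of 0.03. Ppp1r15b, the constitutive partner of the phosphatase that restores eIF2, rose from 19.7 to 26.0 FPKM (0.38 ± 0.07, limma adjusted p = 0.0108). Eif2ak1, the heme-regulated eIF2 kinase, fell from 14.6 to 12.2 FPKM (limma adjusted p = 0.0412). Eif2a, whose product is not a subunit of eIF2, fell from 51.5 to 44.8 FPKM (limma adjusted p = 0.0482). The eIF2 subunit genes Eif2s1, Eif2s2 and Eif2s3x, named after their values were seen, were not called (limma adjusted p = 0.140, 0.344 and 0.502). The call of Eif2ak1 was lost in 11 alternatives and that of Eif2a in 14. Leaving out any 1 library but control 264 was among them, with adjusted p of 0.0644 to 0.134 and of 0.0929 to 0.150. These are RNA levels and give no phosphorylation state.

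Leucine zipper partners and relatives of ATF4 and CHOP had 2 of 12 tested members called higher and 1 lower, beside 7.91% and 15.6% of all tested genes. Atf5, a close relative that is translated by the same route, rose from 38.4 to 56.1 FPKM (0.52 ± 0.13, limma adjusted p = 0.0297). Nfe2l2, which encodes NRF2 of the oxidative stress response, rose from 20.3 to 29.0 FPKM (0.49 ± 0.11, limma adjusted p = 0.0208). Cebpa, a factor of keratinocyte differentiation, fell from 185 to 144 FPKM (-0.36 ± 0.07, limma adjusted p = 0.0159). These 3 calls were lost without some single libraries. The adjusted p of Atf5 was 0.0697 to 0.0959 without control 261 or 262 or knockout-labelled 263 or 266. That of Nfe2l2 was 0.0522 to 0.0634 without 261, 262 or 263, and that of Cebpa 0.0532 to 0.0686 without 261, 263 or 266. After the length adjustment the Cebpa difference was -0.24 (adjusted p 0.0891), and with no filter on low values the adjusted p was 0.0714 for Atf5 and 0.0516 for Nfe2l2.

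Of the other known ATF4 and CHOP targets, 2 of 19 tested were called higher and 5 lower, beside 7.91% and 15.6% of all tested genes, with a median of -0.07 against -0.06. Nupr1, a stress-induced chromatin protein, fell from 75.6 to 44.7 FPKM (-0.74 ± 0.07, limma adjusted p = 0.00203). Cbs, which condenses serine with homocysteine, fell from 21.3 to 13.6 FPKM, and Gpt2, an alanine aminotransferase, from 13.7 to 10.1 FPKM (limma adjusted p = 0.0129 and 0.0138). Tnfrsf10b, a death receptor that CHOP induces, rose from 1.62 to 2.50 FPKM (0.42 ± 0.09, limma adjusted p = 0.0177). Without knockout-labelled 263 the adjusted p was 0.0507 for Cbs, 0.0561 for Gpt2 and 0.0685 for Tnfrsf10b, and without 266 it was 0.0722 for Tnfrsf10b. The other calls, named after their values were seen, were Xpot (higher) and Got1 and Herpud1 (lower).

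Relatives of single members had 4 of 13 tested called higher and 3 lower, beside 7.91% and 15.6% of all tested genes, with a median of -0.15. Asnsd1, a relative of Asns, fell from 32.2 to 23.8 FPKM (-0.42 ± 0.06, limma adjusted p = 0.00475), against the direction of Asns. Trib2, a relative of Trib3, rose from 3.88 to 5.05 FPKM (0.31 ± 0.08, limma adjusted p = 0.0305), against the direction of Trib3, but its call was lost in 8 alternatives (adjusted p 0.0784 to 0.0968 without any 1 library but control 264). Trib1, named after its values were seen, was also called higher. Ggct, which releases 5-oxoproline from gamma-glutamyl amino acids, and Oplah, which opens the 5-oxoproline that Chac1 also yields, fell from 274 to 196 FPKM and from 25.1 to 19.3 FPKM (limma adjusted p = 0.00794 and 0.0107).

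**Figure D5:**
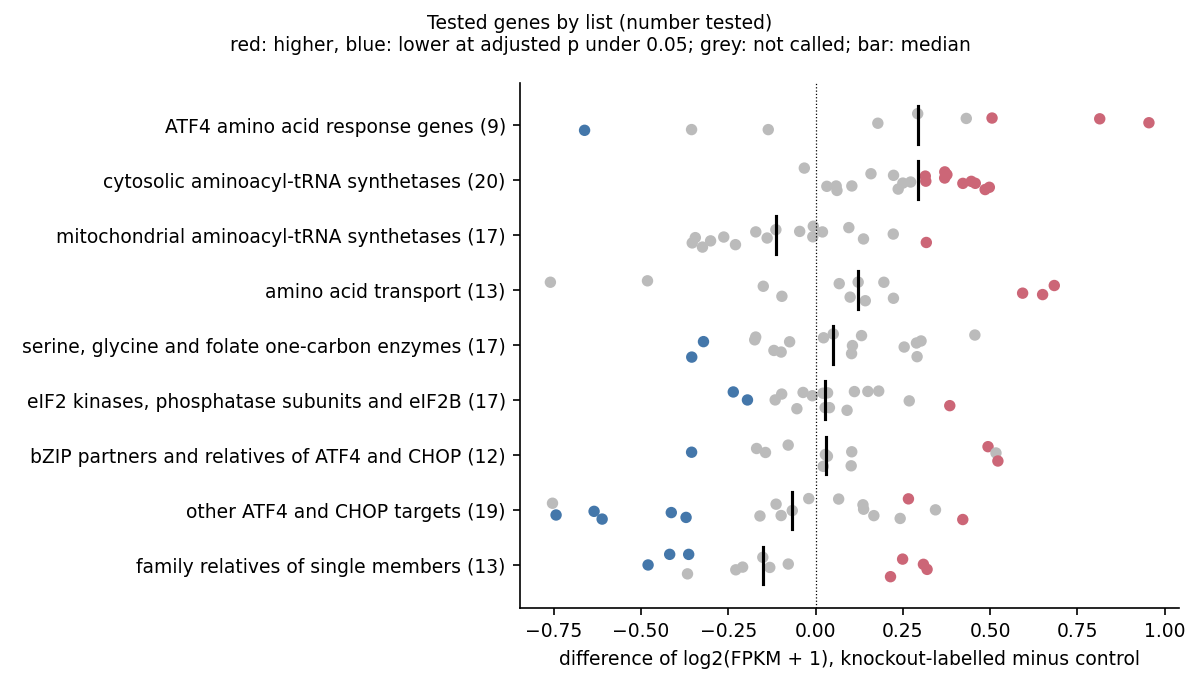
Difference of log2(FPKM + 1), knockout-labelled minus control (horizontal axis), for every tested gene of the members, the 7 pathway lists and the added mitochondrial list, with a bar at each list's median. Cytosolic synthetases lie almost wholly at or above 0, while other lists hold genes on both sides.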

How the data were processed

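RNA was extracted with QIAGEN RNeasy Mini columns, per the labels' protocols. CASAVA and Cufflinks with GRCm38 are named in the submitters' processing notes without versions. For the aligner, annotation and strandedness no source used here has an entry. What the authors deposited is 1 FPKM table with a column for each of the 6 libraries. It held 49452 rows, of which 22449 were at 0 throughout. GENCODE M21 gave symbols and positions for 49109 identifiers and left 343 unmatched. Of rows that shared a symbol the one with the highest mean was kept, which dropped 66. The FPKM values come without fragment counts, so the counting error in them could not be modelled. Steps in the low values gave depths of 1 to 1.21 relative to control 261, and FPKM sums were 609375 to 672925.

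A gene was tested where either group's mean reached 1 FPKM. The test was limma 3.58.1 (R 4.3.3) with an intensity trend on log2(FPKM + 1), a scale that understates changes of low genes, so folds in the text are ratios of mean FPKM. Two-sided p-values were adjusted over the 13500 genes by Benjamini and Hochberg's method and called under 0.05. Each library was assigned 1 sex by whether Xist exceeded the sum of Y-linked transcripts, which a pool of both sexes would also receive. This gave 2 male and 1 female control libraries and 1 male and 2 female knockout-labelled libraries. Tables and figures used Python 3.11.15, pandas 2.3.3 and matplotlib 3.10.9, and the fit was tested on simulated data.

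The members and lists were chosen with earlier results of these data known. Named genes are the members, Rictor and, from each pathway list, every called gene where there are at most 4 and otherwise the 4 with the smallest p. Genes outside this rule are said to be named after their values were seen. The alternatives were other pseudocounts, filters, scalings, model options, a sex term, a threshold of 0.10, a length adjustment and leaving out each library.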

Additional observations from a re-analysis of the deposited data

How the results depend on the processing

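Calls for Asns, Mthfd2 and Trib3 held in all 20 alternatives, as did those for Slc7a1, Slc38a2, Nars, Tars, Eprs, Vars, Ppp1r15b, Nupr1, Asnsd1, Ggct and Oplah, and that for Slc7a11 in the 19 run for it, though its direction was fixed by the filter, which it passed through the knockout-labelled group alone. The threshold of 0.10 reads the same fit at a looser cutoff, so a call under 0.05 could not be lost there. The causes of the moves below were not tested. Members called higher, 3 as reported, were 5 under quantile normalization, array weights or a threshold of 0.10, and 2 to 4 when single libraries were left out. Members called lower, 1 as reported, were 2 with array weights or the threshold of 0.10 and 1 to 2 with a library left out. Over all tested genes the higher calls, 1068 as reported, were 1527 under quantile normalization, 2335 with array weights and 1574 at the threshold of 0.10. The lower calls, 2101 as reported, were 3937 with array weights and 2977 at that threshold. The Phgdh difference ranged from -0.2291 to 0.002 with a library left out, turning sign without control 264. Pathway genes called higher, 22 as reported, were 12 with no filter on low values, 40 with array weights and 14 with a sex term, and 8 to 32 with a library left out (8 without knockout-labelled 263, 32 without control 264). Those called lower, 13 as reported, were 8 with no filter, 8 under median and trimmed mean scaling, 7 with the length adjustment or the sex term, 20 with array weights, and 5 to 17 with a library left out. Calls over all tested genes moved as well. The higher calls were 724 of 26987 with no filter, 634 with the sex term and 477 to 1514 with a library left out. The lower calls were 1507 with no filter, 1705 and 1661 under median and trimmed mean scaling, and 1585 with the length adjustment. They were 1218 with the sex term and 985 to 2270 with a library left out. Cytosolic synthetases called higher, 10 as reported, were 6 with no filter, 16 with array weights, and 4 to 13 with a library left out. No paired analysis was possible because the library numbers differ for every library. The gene length trend ran opposite in control 264 and the knockout-labelled libraries, so length and group cannot be fully told apart in the values as deposited.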
